A study of Homo sapiens with 13 samples.

Results

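DACT1, DACT3, WNT5A, WNT5B, WNT11, ROR1, ROR2, RYK, VANGL1 and VANGL2 are ligands, receptors and intracellular regulators of Wnt signalling outside the beta-catenin branch. They were chosen by name, all 10 were listed among 23886 gene symbols in both deposited tables, and all 10 had reads. The choice was made with the fold changes of these tables known, above all those of DACT1 and WNT5A after SOX9 knockdown, so their levels and changes are a description and carry no test.

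Polyadenylated RNA was sequenced from 13 samples of DLD-1, an established human line from a Dukes' type C colorectal adenocarcinoma, harvested 72 h after small interfering RNA (siRNA) was transfected at 50 nM. The first comparison set 4 samples with an siRNA against SOX9 (siSOX9; 3 from experiment 1 and 1 from experiment 2) against 3 samples with a control siRNA (siCtrl; 2 from experiment 1 and 1 from experiment 2). The second set 4 samples with siRNA against Y14 (siY14; 2 with siRNA 9 and 2 with siRNA 10, both pooled in the table) against 2 siCtrl samples of experiment 3. SOX9 is a DNA-binding factor active in intestinal crypts, and Y14, encoded by RBM8A, belongs to the exon junction complex that splicing leaves on mRNA. The samples are of 1 cell line, and the labels do not say that they were separate cultures, so a p-value here reflects the spread of these samples alone, and that spread may be technical.

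Non-canonical Wnt signalling is started by secreted ligands such as WNT5A and WNT11, which bind Frizzled proteins together with co-receptors such as ROR1, ROR2 and RYK. Inside the cell the signal passes through Dishevelled to small GTPases, JNK and calcium, and the planar cell polarity proteins VANGL1 and VANGL2 act in the same branch. DACT proteins bind Dishevelled and VANGL proteins and modulate both branches of the pathway. In colon tumour cells the beta-catenin branch is usually active through loss of APC, and the non-canonical genes are studied mainly for cell movement and polarity.

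The deposited values are mean normalised read counts per arm, namely reads scaled by each library's size factor. The means carry 15 significant digits, which allowed whole reads of single libraries to be recovered for 15489 genes of the siSOX9 table (82.6% of genes with reads) and 13517 genes of the siY14 table (76.3%). Recovered libraries have no sample name and carry letters in order of falling depth within an arm. Their depth was estimated at 24.8 to 184 M counts for the siSOX9 comparison and 47.2 to 71.6 M for the siY14 comparison. In the authors' deposited table SOX9 averaged 9067 normalised counts with siSOX9 and 24468 with siCtrl, which is -1.43 on the log2 scale (authors' adjusted p 1.40e-04). RBM8A was listed at 0 in every arm, so the knockdown of Y14 was not checked. EPCAM, KRT8, KRT18, KRT19 and CDX2, markers of colon epithelium, were abundant in every arm, the lowest being CDX2 at 7255 normalised counts with siY14 and 7413 with siCtrl. CDX1, also on that list of 8, was near 0, with 0.618 in siSOX9 and 2.83 in siCtrl, and 0 in siY14 and 0.637 in siCtrl. In the siSOX9 table library a of both arms stood apart: over 8244 genes, their deviations from the arm mean correlated at 0.896. In the siY14 table the libraries formed the pairs a with c and b with d, with correlations of 0.895 and 0.893 over 7059 genes. The labels do not say whether these pairs follow the 2 siRNAs, since recovered libraries have no sample name.

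The promoters of DACT1, WNT5A and ROR1, the members whose transcripts rose after SOX9 knockdown, are shown because the tested factor, SOX9, binds DNA. Each is a RefSeq window on GRCh38.p14 of 300 bases, 250 before an annotated start and 50 from it on, written 5′ to 3′ on the gene's strand. Capitals mark the SOX core ACAAT or its reverse complement ATTGT, and the TCF/LEF core CTTTG or its reverse complement CAAAG.
DACT1 chr14:58633811-58634110 (+): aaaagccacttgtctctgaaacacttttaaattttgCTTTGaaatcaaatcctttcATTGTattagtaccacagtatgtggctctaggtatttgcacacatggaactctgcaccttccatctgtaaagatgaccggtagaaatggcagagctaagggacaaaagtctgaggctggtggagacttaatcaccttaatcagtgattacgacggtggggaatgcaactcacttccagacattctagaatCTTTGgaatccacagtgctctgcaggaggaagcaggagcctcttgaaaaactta
DACT1 chr14:58637712-58638011 (+): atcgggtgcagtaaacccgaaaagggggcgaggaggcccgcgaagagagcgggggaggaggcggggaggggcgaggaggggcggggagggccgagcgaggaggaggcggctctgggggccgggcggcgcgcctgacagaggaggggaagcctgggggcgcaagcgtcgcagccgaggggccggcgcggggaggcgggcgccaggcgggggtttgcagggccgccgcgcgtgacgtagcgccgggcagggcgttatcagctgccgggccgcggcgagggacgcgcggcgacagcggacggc
DACT1 chr14:58638587-58638886 (+): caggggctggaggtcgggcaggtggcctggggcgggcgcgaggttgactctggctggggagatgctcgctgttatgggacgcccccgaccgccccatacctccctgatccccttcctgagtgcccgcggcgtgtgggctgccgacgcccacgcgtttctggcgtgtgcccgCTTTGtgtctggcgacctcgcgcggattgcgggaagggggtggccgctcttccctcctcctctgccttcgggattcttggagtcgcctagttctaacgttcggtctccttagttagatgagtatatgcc
WNT5A chr3:55481349-55481648 (-): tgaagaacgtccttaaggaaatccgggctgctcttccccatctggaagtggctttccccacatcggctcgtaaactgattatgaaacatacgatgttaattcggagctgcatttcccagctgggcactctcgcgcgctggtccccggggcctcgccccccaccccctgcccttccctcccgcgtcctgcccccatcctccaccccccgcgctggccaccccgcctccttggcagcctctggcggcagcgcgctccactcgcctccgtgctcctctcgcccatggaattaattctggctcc
WNT5A chr3:55487257-55487556 (-): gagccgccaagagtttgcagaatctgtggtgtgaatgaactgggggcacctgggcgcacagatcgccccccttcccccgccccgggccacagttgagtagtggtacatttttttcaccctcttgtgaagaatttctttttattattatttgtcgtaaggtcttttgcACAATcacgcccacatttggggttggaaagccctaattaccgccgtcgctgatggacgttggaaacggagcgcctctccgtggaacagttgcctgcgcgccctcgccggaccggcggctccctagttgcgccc
ROR1 chr1:63773767-63774066 (+): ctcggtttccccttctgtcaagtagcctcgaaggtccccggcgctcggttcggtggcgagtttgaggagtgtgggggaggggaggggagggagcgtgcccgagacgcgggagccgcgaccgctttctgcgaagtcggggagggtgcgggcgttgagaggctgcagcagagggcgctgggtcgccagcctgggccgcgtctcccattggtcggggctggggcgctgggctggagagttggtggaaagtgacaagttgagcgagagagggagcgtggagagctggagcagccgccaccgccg

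The first DACT1 window holds 1 SOX core and 2 TCF/LEF cores, the last DACT1 window holds 1 TCF/LEF core, and the second WNT5A window holds 1 SOX core. The other 3 windows hold none of these letters. The DACT1 windows differ in base composition, with 3, 44 and 27 CpG dinucleotides in the order shown, against a median of 14 over 35116 windows. The WNT5A windows hold 22 and 21 CpG dinucleotides and the ROR1 window holds 29. In all, 9 of 10 members had a RefSeq window, 15 windows together, and WNT11 had none. A SOX core occurred in 5 of these 15 windows, against 27.4% of all windows, and a TCF/LEF core likewise in 5, against 47.5% of all windows. A match is a run of letters and not a measured binding site.

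The authors' adjusted p was below 0.05 with a higher level in siSOX9 for 3 of 10 members, namely DACT1, WNT5A and ROR1, and 1.19% of 18747 genes with reads passed in that direction. With a lower level, 0 of 10 passed the authors' DESeq test against 2.27% of all genes, while at an unadjusted p under 0.05 1 of 10 was lower and 4 of 10 higher (5.9% and 4.25% of all genes), and limma-voom on the recovered reads called 2 of 10 lower and 4 of 10 higher (12.2% and 8.85% of all genes it tested). Reads of all 4 siSOX9 libraries lay above all 3 siCtrl libraries for 4 members and below them for 2, and over 10396 recovered genes this held for 13.6% and 15.9%. After Y14 knockdown, 0 of 10 members passed the authors' DESeq test in the higher direction (3.81% of 17706 genes), 1 of 10 did so at an unadjusted p under 0.05 (10.6% of all genes) and 1 of 8 by limma-voom (12.7% of all genes it tested). RYK and VANGL2, 2 of 10, passed in the lower direction, against 5.35% of all genes, and limma-voom also called 2 lower (14.3% of all genes it tested). Of the 8 members with recovered reads in both arms, 1 lay above and 2 lay below siCtrl in every siY14 library, against 31.3% and 29.3% of 9255 genes. The members were chosen with these contrasts known, so nothing is read from these counts.

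**Figure D1:**
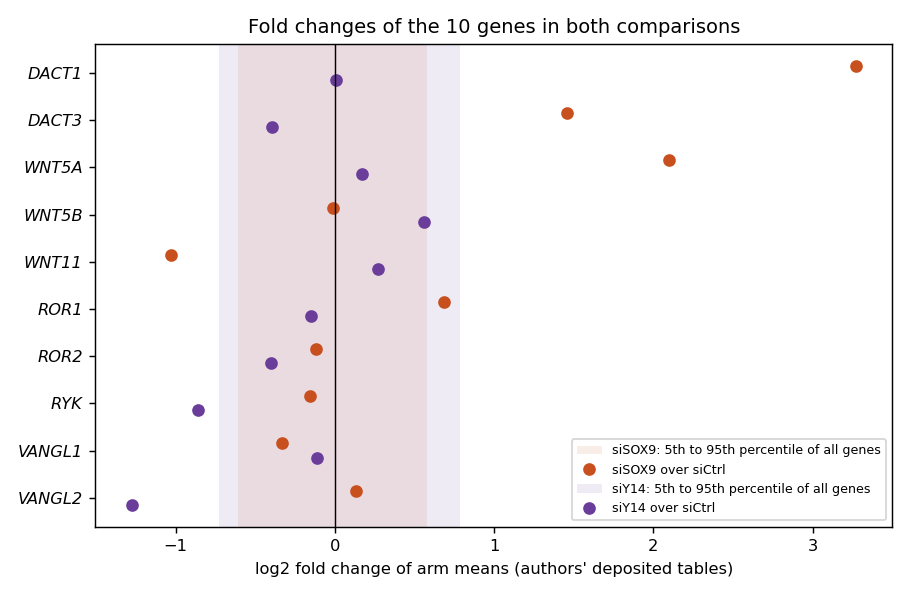
Log2 fold change of the arm means for each of the 10 genes, siSOX9 over siCtrl (orange) and siY14 over siCtrl (purple), with shaded spans for the 5th to 95th percentile over every gene whose mean reached 10. DACT1 at 3.27 and WNT5A at 2.10 lie far right of the siSOX9 span, which runs from -0.61 to 0.58. DACT3 at 1.46 and ROR1 at 0.69 also lie right of that span, and WNT11 at -1.03 lies left of it. VANGL2 at -1.28 and RYK at -0.86 lie left of the siY14 span, which starts at -0.72.

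WNT5A, a secreted ligand of the non-canonical branch, had 574, 581, 647 and 679.7 normalised counts in siSOX9 libraries a to d, against 155, 149.8 and 129 in siCtrl libraries a to c. Every siSOX9 library lay above every siCtrl library, with no overlap. The means were 620.3 ± 51.5 with siSOX9 (SD, n = 4) and 144.6 ± 14.0 with siCtrl (SD, n = 3), a 4.29-fold difference or 2.10 on the log2 scale. It ranked 33rd from the top of 13649 genes whose mean reached 10.

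WNT5B, the closest paralog of WNT5A, showed no such difference. It had 363, 339.7, 340.3 and 348 normalised counts with siSOX9, against 364, 321 and 365 with siCtrl, and the arms overlapped. The log2 fold change was -0.01. Within single libraries WNT5A took 61.3, 63.1, 65.5 and 66.1% of the WNT5A and WNT5B reads with siSOX9, against 29.9, 31.8 and 26.1% with siCtrl. The lowest bound of the exact Clopper-Pearson 95% intervals was 59.5% with siSOX9 and the highest was 37.0% with siCtrl, which cover counting error only.

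**Figure D2:**
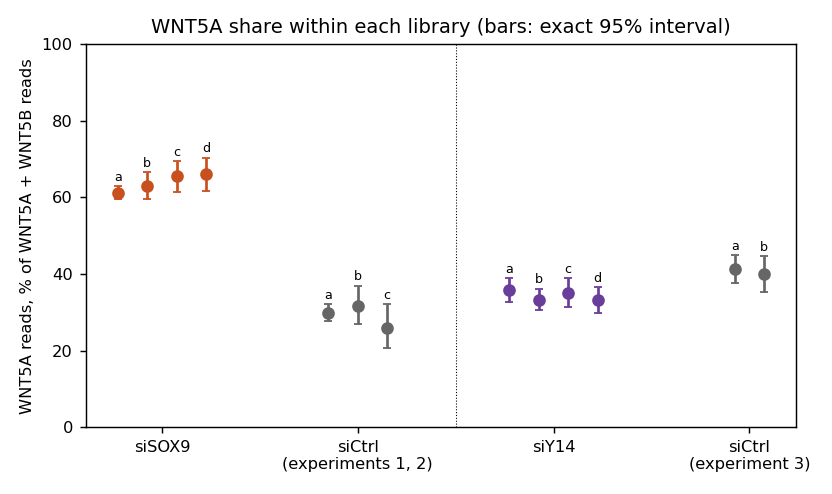
WNT5A reads as a percentage of WNT5A plus WNT5B reads in each library, with exact 95% intervals, for the 4 arms. WNT5A held 61.3 to 66.1% with siSOX9 and 26.1 to 31.8% with the siCtrl of those experiments, and 33.2 to 35.8% with siY14 and 39.96 to 41.3% with the siCtrl of experiment 3.

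WNT11, another ligand of this branch, was near the lower end of the levels. It had 7.55, 22.2, 8.42 and 4.14 normalised counts with siSOX9, against 18.9, 31.3 and 14.5 with siCtrl. siSOX9 library b lay above siCtrl libraries a and c, so the arms overlapped, and the log2 fold change of -1.03 rests on 2 to 27 reads per siSOX9 library. Leaving out siSOX9 library b gave -1.69, and leaving out siCtrl library b gave -0.66.

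DACT1, a scaffold that binds Dishevelled, had 501, 557, 586 and 497 normalised counts in siSOX9 libraries a to d, against 46.1, 68.1 and 51.9 in siCtrl libraries a to c. All siSOX9 libraries lay above all siCtrl libraries, with no overlap. The means were 535.5 ± 43.5 with siSOX9 (SD, n = 4) and 55.4 ± 11.4 with siCtrl (SD, n = 3), a 9.67-fold difference or 3.27 on the log2 scale, 9th from the top of 13649 genes. The reads behind these values were 1793, 451, 348 and 240 with siSOX9 and 159, 50 and 25 with siCtrl. Without library a of both arms the log2 fold change was 3.19 for DACT1, 2.19 for WNT5A and 0.71 for ROR1.

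DACT3, a related Dishevelled binder, had 20.7, 30.9, 33.7 and 31.1 normalised counts with siSOX9, against 11.3, 16.3 and 4.15 with siCtrl. The arms did not overlap, with a log2 fold change of 1.46, but the gene did not pass the authors' threshold. siCtrl library c had 2 DACT3 reads. DACT2, the remaining family gene, averaged 2.30 normalised counts with siSOX9 and 1.32 with siCtrl.

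**Figure D3:**
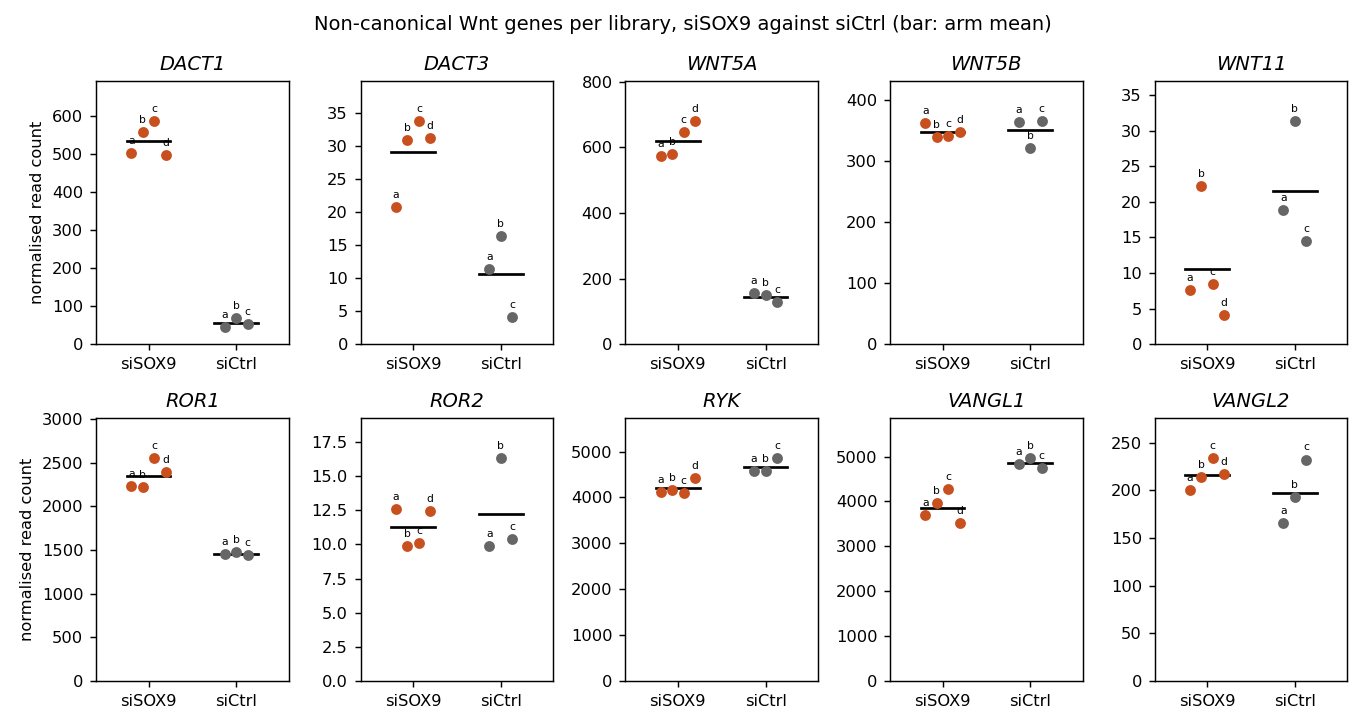
Normalised read counts of the 10 genes in each recovered library, siSOX9 left and siCtrl right in every panel, with letters naming libraries by depth and bars marking arm means. DACT1, WNT5A, ROR1 and DACT3 lie above siCtrl in every siSOX9 library, and RYK and VANGL1 lie below it.

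ROR1, a receptor tyrosine kinase-like protein that binds WNT5A, had 2229.8, 2217, 2556 and 2393 normalised counts with siSOX9, against 1452, 1479 and 1447 with siCtrl. All siSOX9 libraries lay above all siCtrl libraries, a 1.61-fold difference or 0.69 on the log2 scale. ROR2, its paralog, had 12.6, 9.88, 10.1 and 12.4 normalised counts with siSOX9, against 9.86, 16.3 and 10.4 with siCtrl, and the arms overlapped. ROR2 reads made up 0.394 to 0.561% of ROR1 and ROR2 reads with siSOX9 and 0.675 to 1.09% with siCtrl. These shares rest on 6 to 45 ROR2 reads per siSOX9 library and 5 to 34 per siCtrl library. Their exact 95% intervals overlapped between the arms.

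RYK, an atypical receptor kinase for Wnt ligands, had 4122, 4169, 4095.9 and 4414 normalised counts with siSOX9, against 4586, 4566 and 4861 with siCtrl. Every siSOX9 library was lower, by 0.15 on the log2 scale of the means, and the gene did not pass the authors' threshold. ROR1 reads were 34.7 to 38.4% of ROR1 and RYK reads with siSOX9, against 22.9 to 24.5% with siCtrl.

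VANGL1, a core planar cell polarity membrane protein, had 3704, 3956, 4273 and 3510.3 normalised counts with siSOX9, against 4837, 4970.8 and 4751 with siCtrl. All siSOX9 libraries were lower, with a log2 fold change of -0.33 that did not pass the authors' threshold. VANGL2, its paralog, had 201, 214, 234 and 218 normalised counts with siSOX9, against 166, 193 and 232 with siCtrl. The arms overlapped, with a log2 fold change of 0.13. VANGL2 reads were 5.12 to 5.84% of the VANGL pair with siSOX9 and 3.32 to 4.66% with siCtrl. The exact 95% intervals overlapped, since the lowest bound with siSOX9 was 4.39% and the highest with siCtrl was 5.59%.

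Levels of different genes were compared per kilobase of exon (GENCODE v29 on GRCh38), since longer transcripts give more reads. With siSOX9 the order of normalised counts per kilobase was RYK 1427, VANGL1 440.3, ROR1 356, WNT5B 135, DACT1 122, WNT5A 97.7, VANGL2 40.6, WNT11 5.49, DACT3 5.43 and ROR2 2.32. With siCtrl of those experiments it was RYK 1587, VANGL1 553, ROR1 221, WNT5B 136, VANGL2 37.0, WNT5A 22.8, DACT1 12.6, WNT11 11.2, ROR2 2.52 and DACT3 1.98. Libraries of WNT5B and DACT1, and of WNT11 and DACT3, overlapped with siSOX9, and those of DACT1 and WNT11, and of ROR2 and DACT3, overlapped with siCtrl. The other neighbours in these orders did not overlap. DACT1 and WNT5A, below VANGL2 with siCtrl, stood above it with siSOX9.

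After Y14 knockdown DACT1 and WNT5A lay at siCtrl levels within the spread of the libraries. DACT1 had 33.6, 45.6, 32.3 and 34.8 normalised counts in siY14 libraries a to d, against 38.5 and 34.4 in siCtrl libraries a and b, and the arms overlapped with a log2 fold change of 0.00. WNT5A had 272, 292, 255 and 292 with siY14, against 264 and 231 with siCtrl, and the arms overlapped. DACT3, WNT11 and ROR2 lay between 3.48 and 16.8 normalised counts in every library of both arms, and their arms overlapped too.

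WNT5B had 487, 586, 473 and 589 normalised counts with siY14, against 376 and 347 with siCtrl. All siY14 libraries were higher, 1.48-fold in the means, and the gene did not pass the authors' threshold. Libraries b and d were the highest, and library a and library c lay between them and siCtrl. WNT5A took 33.2 to 35.8% of the pair's reads with siY14 and 39.96 to 41.3% with siCtrl. The exact 95% intervals overlapped, since the highest upper bound with siY14 was 39.0% and the lowest bound with siCtrl was 35.4%.

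VANGL2 had 84.8, 46.4, 89.2 and 52.1 normalised counts with siY14, against 166 and 164 with siCtrl. All siY14 libraries were lower, and libraries a and c lay above b and d, the same pairs as in the table at large. The means were 68.2 ± 22.0 with siY14 (SD, n = 4) and 165 ± 0.993 with siCtrl (SD, n = 2), a log2 fold change of -1.28 and 76th from the bottom of 13444 genes. By limma-voom VANGL2 was no longer called when siCtrl library a or b was left out. That left 1 siCtrl library, and most calls over all genes were lost too. The log2 fold changes of VANGL2 with 1 library left out ran from -1.43 to -1.13. RYK had 3632, 3717, 3474 and 3800.3 with siY14, against 6633 and 6648 with siCtrl, a log2 fold change of -0.86, with all 4 siY14 libraries below siCtrl.

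ROR1 averaged 2379.9 with siY14, where reads per library were not recovered, against 2601 and 2675 in the siCtrl libraries, a log2 fold change of -0.15. VANGL1 averaged 6315 with siY14, likewise without libraries, against 6823 and 6828 with siCtrl, a log2 fold change of -0.11. Both lay within the span of most genes and did not pass the authors' threshold.

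**Figure D4:**
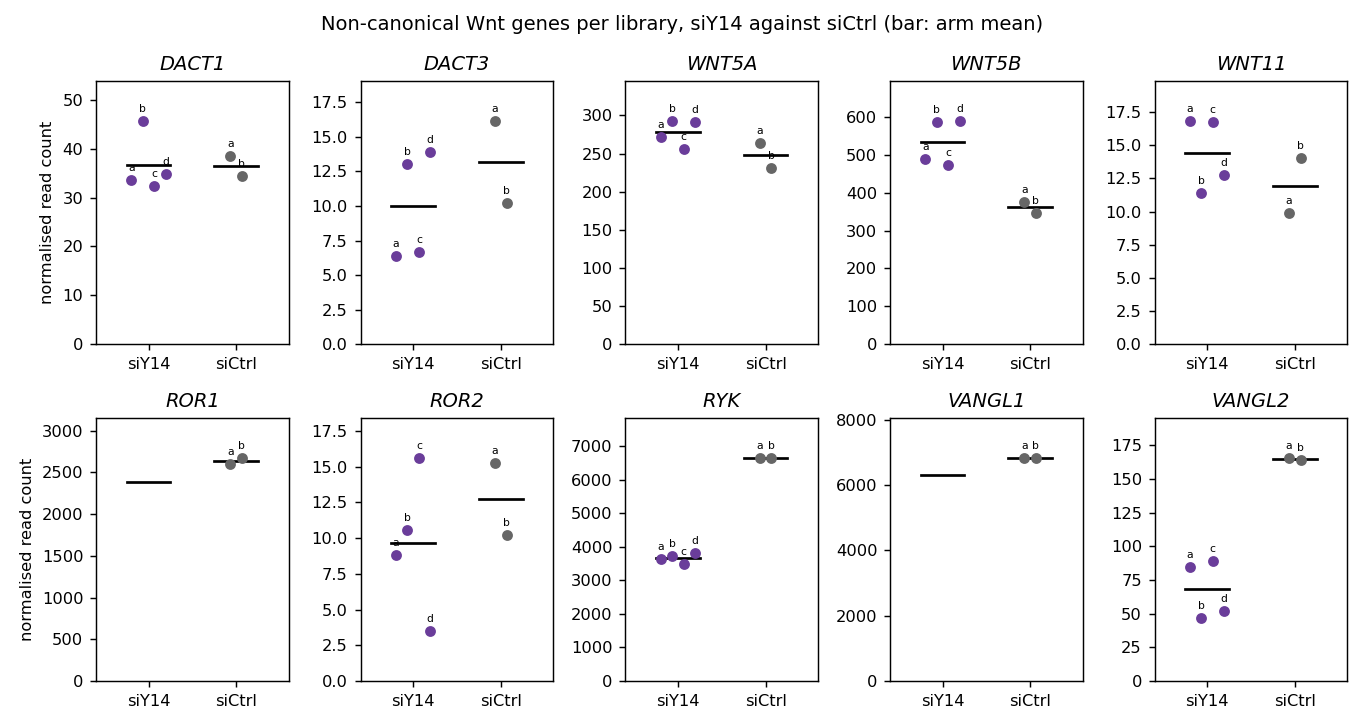
Normalised read counts of the 10 genes in each recovered library, siY14 left and siCtrl right in every panel, with letters naming libraries by depth and bars marking arm means; siY14 libraries of ROR1 and VANGL1 were not recovered. VANGL2 and RYK lie below siCtrl in every siY14 library, WNT5B lies above it, and VANGL2 splits into a with c and b with d.

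With siY14 the order of normalised counts per kilobase was RYK 1242, VANGL1 720.1, ROR1 361, WNT5B 207, WNT5A 43.8, VANGL2 12.8, DACT1 8.34, WNT11 7.47, ROR2 1.99 and DACT3 1.87. With siCtrl of experiment 3 it was RYK 2256, VANGL1 778, ROR1 400.3, WNT5B 140.3, WNT5A 39.0, VANGL2 30.9, DACT1 8.31, WNT11 6.19, ROR2 2.62 and DACT3 2.46. Libraries of VANGL2, DACT1 and WNT11 overlapped as neighbours with siY14, and those of ROR2 and DACT3 overlapped in both arms. The 2 tables were normalised separately, so levels are not compared between their siCtrl arms.

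Of the other genes of the pathway, counted over 11 lists without the 10 members, 103 had reads in the siSOX9 table. At the authors' threshold FOS, a subunit of the transcription factor AP-1, was the 1 that rose, while 6 fell. FOS averaged 373.9 ± 38.9 with siSOX9 (SD, n = 4) and 164.7 ± 16.8 with siCtrl (SD, n = 3), with an authors' adjusted p of 4.78e-05. WNT7B, a secreted Wnt ligand, averaged 396.4 ± 38.7 with siSOX9 and 918.9 ± 105 with siCtrl, and fell by 1.21 on the log2 scale with an authors' adjusted p of 1.88e-07. Those called were 6.80% of the 103, against 3.47% of all genes with reads, and the median of the 85 with a mean of at least 10 was 0.03, against 0.01 over all such genes.

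Among receptors, FZD5 fell by 0.79 and FZD2 by 0.73 on the log2 scale. FZD5 averaged 565 ± 59.3 with siSOX9 and 974 ± 49.3 with siCtrl (SD, n = 4 and 3), and FZD2 averaged 285 ± 15.8 with siSOX9 and 471.6 ± 48.7 with siCtrl. FZD6 at 2449 and 2548 and FZD7 at 2754 and 2174, in siSOX9 and siCtrl in that order, were the most abundant Frizzled genes per kilobase. FZD3 averaged 1194 with siSOX9 and 1111 with siCtrl, FZD1 207 and 186, FZD4 234 and 185, FZD8 19.9 and 23.8 and FZD9 6.43 and 2.98 in the same order, and none of these passed. FZD10 was listed at 0 in every arm. Among further ligands, WNT16 averaged 57.9 with siSOX9 and 52.6 with siCtrl and WNT4 20.7 and 19.9, while WNT7A, WNT9A and WNT9B averaged under 3 in both arms. PTK7, a pseudokinase co-receptor of planar polarity, fell by 0.70, with 1468 ± 140.3 in siSOX9 libraries and 2389.8 ± 191 in siCtrl libraries.

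KLHL12, a ubiquitin ligase adaptor for Dishevelled, fell by 0.67 and CELSR1, an atypical cadherin of planar polarity, fell by 0.57 on the log2 scale. The authors' adjusted p was 0.0298 for KLHL12 and 0.0383 for CELSR1. Of the 9 canonical feedback targets, 1 passed the authors' threshold with a higher level, where 1.19% of all genes did. This was SP5, a zinc finger factor switched on by beta-catenin, at 1331 ± 316 with siSOX9 and 449.9 ± 102 with siCtrl. AXIN2 and LEF1 had log2 fold changes of 0.45 and 0.67 without passing, and LGR5 had -0.37. At the authors' unadjusted p under 0.05, 3 of the 9 were higher and 1 lower (4.25% and 5.9% of all genes). Of the 6 that limma-voom tested, 1 was called higher and 2 lower (8.85% and 12.2% of all genes it tested). limma-voom was run on 11 of the 12 list and marker genes named for the siSOX9 table, all but COL3A1, and called all 11. These genes were picked because the authors' test called them on the same reads, so this is not separate support. On the pathway lists limma-voom called 8 genes higher and 10 lower. With library a of both arms as a block, a setting chosen after seeing the data, it called 19 and 16. Of all 10396 genes, that setting called 2614 higher and 2665 lower.

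After Y14 knockdown, of 99 pathway genes other than the members with reads, 3 rose and 6 fell, 9.09% against 9.16% of all genes. DVL1, a Dishevelled protein, rose by 0.62, the polarity scaffold SCRIB by 0.63 and FJX1, the four-jointed kinase of Fat signalling, by 0.67 on the log2 scale. ROCK1 and ROCK2, kinases that act on the actin cytoskeleton, fell by 1.08 and 0.68, and the GTPase CDC42 by 0.78. ROCK1 averaged 5207 with siY14 and 11036 with siCtrl, and CDC42 averaged 11589 and 19929.6 in the same order. FZD4, a Frizzled receptor, fell by 0.78, the calcineurin subunit PPP3CB by 0.68 and the inositol trisphosphate receptor ITPR2 by 0.66. WNT16 averaged 96.1 with siY14 and 140.5 with siCtrl and WNT4 4.66 and 12.6, and neither passed. Authors' adjusted p-values of the 9 genes ranged from 2.56e-04 for CDC42 to 0.0138 for ITPR2. Among canonical targets SP5 rose by 0.76, LEF1, a DNA-binding partner of beta-catenin, rose by 0.53 and TCF7, its relative, fell by 0.56.

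**Figure D5:**
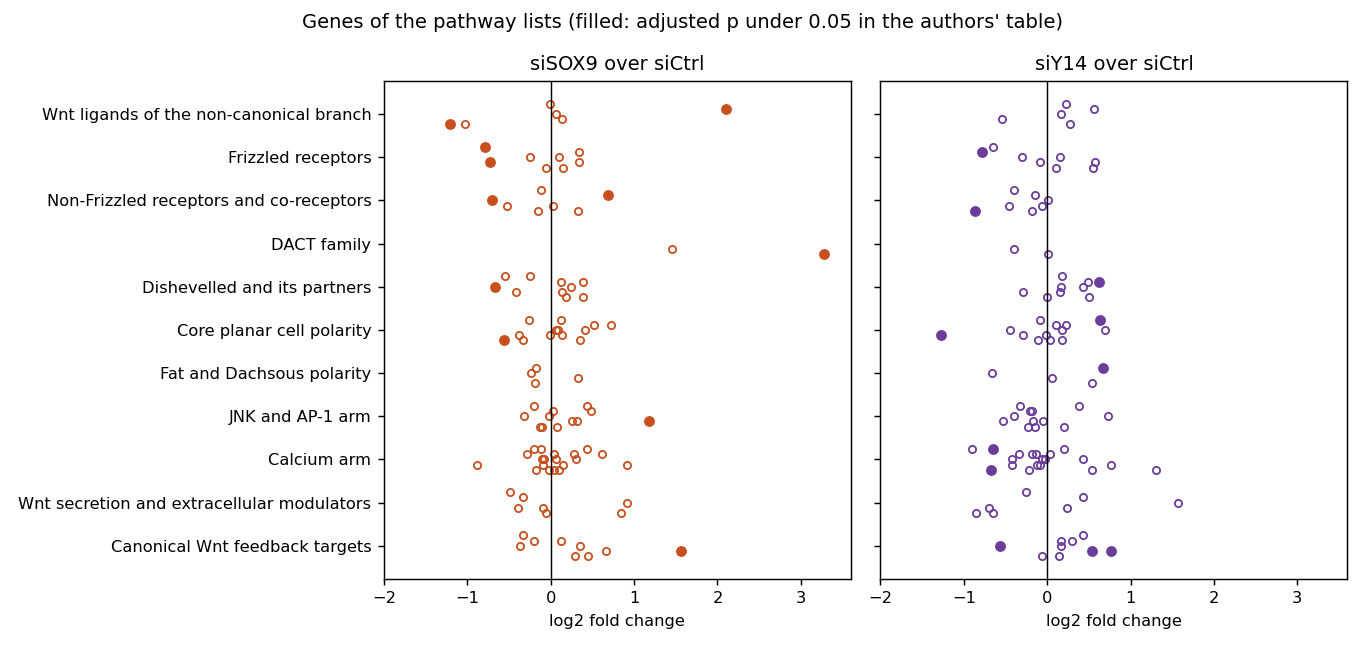
Log2 fold change of each gene with a mean of at least 10 in 11 of the gene lists, the 10 members included, for siSOX9 over siCtrl (left) and siY14 over siCtrl (right); filled points have an authors' adjusted p under 0.05. DACT1 at 3.27 and WNT5A at 2.10 are the filled points farthest to the right on the left side, and VANGL2 at -1.28 and RYK at -0.86 those farthest to the left on the right side.

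Markers of other cell types moved with siSOX9 in part. Of 12 fibroblast and endothelial markers, 10 recovered genes summed to 427 to 578 normalised counts in siSOX9 libraries and 309 to 384 in siCtrl libraries. ACTA2, smooth muscle actin, made up most of the siSOX9 sum, with 302.7 in siSOX9 and 166.8 in siCtrl, and THY1 averaged 6.74 and 0.193 in the same order, and neither passed. COL1A1 averaged 82.6 with siSOX9 and 34.1 with siCtrl, and COL3A1 11.9 and 0.647 in the same order, and both rose. PDGFRB fell, with 55.8 in siSOX9 and 102.7 in siCtrl. COL1A2 and LUM were listed at 0 in both arms and DCN, PECAM1, CDH5 and PDGFRA were below 1. For siY14 the sums were 167 to 193 in siY14 libraries and 252 to 259 in siCtrl libraries. Immune marker sums were 131 to 194 with siSOX9 and 157 to 218 with siCtrl, and 137 to 152 with siY14 and 139.8 to 149 with siCtrl. VIL1, a marker of enterocytes, fell in both comparisons, by 1.19 with siSOX9 and 0.57 with siY14 on the log2 scale. CDH1, the epithelial cadherin, averaged 19499 with siY14 and 44973 with siCtrl and fell by 1.21, with an authors' adjusted p of 0.0282. The part of these genes in the members' values was not tested. All samples were of 1 cell line, DLD-1, and a change in part of its cells cannot be told apart from a change in RNA per cell.

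Genes with the pattern most like DACT1 were found as the nearest in the plane of both log2 fold changes, over 13186 genes with a mean of at least 10 in both tables. In order they were FERMT2, GPRC6A, CDH7, RNU4ATAC and IQGAP2, at distances of 0.252 to 0.665. FERMT2, an integrin activator, averaged 127.5 with siSOX9 and 15.4 with siCtrl, and 35.8 with siY14 and 38.8 with siCtrl. The 5 nearest to WNT5A were IL2RG, HIST1H2BF, PTPN22, HIST2H2BE and LDHC, at distances of 0.161 to 0.287. IL2RG, a cytokine receptor chain, averaged 155.9 with siSOX9 and 40.2 with siCtrl. Some of the named genes rested on low counts. RNU4ATAC averaged 16.5 with siSOX9 and 1.56 with siCtrl, HIST1H2BF 28.6 and 6.32 and LDHC 21.5 and 5.36 in the same order. Histone genes have near-identical copies that can split reads, which makes their values uncertain.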

How the data were processed

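Polyadenylated RNA of 13 samples was sequenced from stranded libraries, per the labels' protocols. Per the submitters' processing notes, the build was hg19 and the tools were HISAT2, TopHat2, Bowtie, SAMtools, HTSeq and DESeq. Versions, settings and the use of strand are not given in the sources used here.

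Deposited by the authors were 2 tables of comparisons. Per the file headers, the means per arm are a signal, read counts divided by a size factor. The deposited fold change is the ratio of the arm means, beside its log2 value, and the deposited p-value has an adjusted p-value. No column holds 1 library, so the counts assumed in the plan were replaced by these means, with 0 unused columns of single samples.

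The members and gene lists were chosen with earlier results of these data known. Named genes were the 10 members, SOX9, RBM8A, up to 4 called genes per list and direction, the WNT and FZD genes and the nearest genes to DACT1 and WNT5A. The count and median of 1 list are not reported here. Main calls were the authors' adjusted p under 0.05.

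Whole reads per library were sought as the sums that give each printed mean, and a set was taken where it was far likelier than any other. Closer sets were judged likelier, so standard deviations of genes with high means can be too small. The search was tested on 1800 simulated sets, with 1735 accepted and right and 0 accepted and wrong. Their spread was the one the search assumes, so arms with a wider spread were not tested. Of 1800 means moved off whole reads, 6 were accepted. For means above 600, 5 of 600 were accepted. Recovered reads were retested where the mean reached 10, using voom of limma 3.58.1 (R 4.3.3) and Benjamini-Hochberg adjustment. Motifs were counted on both strands. Alternatives were other pseudocounts, scalings, thresholds and filters, and leaving out libraries.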

Additional observations from a re-analysis of the deposited data

How the results depend on the processing

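Pseudocounts of 1 and 10 were run for the members and the called list and marker genes. Those with recovered reads also had other scalings (TMM, RLE) and left-out libraries, but not ROR1 and VANGL1 in the siY14 table. SOX9, the uncalled WNT and FZD genes and the nearest genes had no such runs. Of 14 called list and marker genes in the siY14 table, 5 had recovered reads in both arms, and limma-voom called all 5. DVL1, ROCK1, ROCK2, CDC42, PPP3CB, ITPR2, LEF1, CDH1 and VIL1 had only pseudocount runs, which keep signs. Left-out libraries do too, as the arms of called genes did not overlap. Scalings reversed none. Among uncalled members, leaving out 1 library took ROR2 between -0.25 and 0.15 and WNT5B between -0.07 and 0.02 in the siSOX9 table, and DACT1 between -0.12 and 0.09 in the siY14 table. WNT11 ran from -1.69 to -0.66 in the siSOX9 table. With 1 library left out, DACT1 ran from 3.16 to 3.45, WNT5A from 2.02 to 2.16 and ROR1 from 0.64 to 0.71 in the siSOX9 table, and VANGL2 from -1.43 to -1.13 and RYK from -0.88 to -0.84 in the siY14 table. With a pseudocount of 10, DACT1 was 3.06.

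Counts of calls moved more. In the siSOX9 table, an authors' adjusted p of 0.01 left 2 members higher, without ROR1, and 4 pathway genes lower, where 134 of all genes were higher and 283 lower; limma-voom called 4 members higher (DACT3 added; 8.85% of all genes) and 2 lower (RYK and VANGL1; 12.2%), against 3 and 0; leaving out each library in turn gave 3 to 4 and 1 to 2, where all genes gave 375 to 1193 and 826 to 1393 of 10396, and leaving out the deepest library of both arms gave 4 and 2, where all genes gave 1442 and 1829. With library a of both arms as a block, limma-voom called 4 members higher and 3 lower and 19 and 16 pathway genes, where all genes gave 2614 and 2665. For the pathway lists it called 8 higher and 10 lower, against 1 and 6; 12 and 12 without the deepest library of both arms, and 4 to 7 and 7 to 10 with each library left out. In the siY14 table, 1 member (WNT5B) was called higher, against 0, at an adjusted p of 0.1, over genes whose mean reached 10, and by limma-voom (12.7% of all genes); leaving out each library gave 0 to 1 higher and 1 to 2 lower, with 1 lower (VANGL2 lost) and 0 higher without siCtrl library a or b, where all genes gave 4 and 74 higher and 50 and 284 lower of 9255. Of 99 pathway genes with reads, 0 were higher at an adjusted p of 0.01 and 8 at 0.1, against 3 (3.81% of all genes). Over genes whose mean reached 10 there were 6 higher of 83, and by limma-voom 7 (12.7% of all genes it tested). Lower were 10 at 0.1, against 6 (5.35% of all genes). Leaving out each library gave 0 to 13 higher and 0 to 6 lower, with 0 and 0 without siCtrl library a, 1 and 2 without siCtrl library b and 13 higher without siY14 library a. Without 1 siCtrl library, the remaining one was assumed to vary like siY14. At a mean of at least 50, 1 of 5 nearest genes was kept for DACT1 and 1 of 5 for WNT5A. The cause of these differences was not tested. The limma-voom runs without libraries or with a block, and all values without library a of both arms, were chosen after seeing the data. No paired analysis was possible because the columns hold arm means and recovered libraries carry no replicate number (library a as a block is a split seen in the data). Libraries carry no experiment label, so values were not assigned to experiments. DACT3, ROR2 and WNT11 are limited by few reads per library.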
